A study of Homo sapiens with 24 samples.

Results

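The human genes ABHD12B, NRN1, ADRA2A, PDCL3P4, NTS and TEX13B were followed through the first 48 h of mesoderm induction in embryonic stem cells with and without the RNA-binding protein RBPMS. They are 6 of the 57820 genes in the deposited table. They were chosen by measured values, as among the largest differences between RBPMS knockout and wild-type cells at 0 h, before induction, so every value at 0 h is given here as a description and was not tested. The rule had no threshold. Ranked by absolute size among 19835 genes with enough reads, the 0 h differences of ABHD12B, PDCL3P4, NRN1, TEX13B, ADRA2A and NTS stood at places 4, 7, 9, 10, 14 and 65.

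The cells were HUES6, an established human embryonic stem cell line, grown in FTDA medium. WT libraries came from the parental line and KO libraries from its RBPMS knockout derivatives, whose edit and number of clones are not given in the labels. At 0 h the cells were untreated, and at 3, 6 and 48 h they had received 1.5 ng/ml BMP4 with 1.5 µM CHIR, a GSK3 inhibitor that activates WNT signalling. Each of the 8 groups held 3 libraries of stranded, poly(A)-selected RNA, 24 in all, with 29896358 to 50451908 reads assigned to genes. Nothing in the labels says that the 3 libraries of a group are separate cultures, so p-values measure the spread between libraries only. RBPMS RNA averaged 155 CPM in KO and 135 in WT at 0 h, with no test. It was 86.9 ± 5.97 CPM (reads of a gene scaled to an equal library total, SD, n = 3) in KO and 98.2 ± 4.74 in WT at 48 h, and it passed the test at none of 3, 6 and 48 h (log2 differences -0.14, -0.08 and -0.16, limma adjusted p = 0.405, 0.858 and 0.259), so the RNA level does not check the KO label.

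The 6 genes belong to unrelated families. NTS encodes neurotensin, a secreted neuropeptide that acts on the G protein-coupled receptor NTSR1 and is carried and cleared by sortilin (SORT1). ADRA2A encodes the alpha-2A adrenergic receptor, which couples to Gi proteins and lowers cAMP. NRN1 encodes neuritin, a small membrane-anchored protein that promotes neurite growth and is induced by neuronal activity. ABHD12B is a relative of the lysophosphatidylserine lipase ABHD12, TEX13B is a testis-expressed gene of the X chromosome, and PDCL3P4 is a processed pseudogene of PDCL3, a phosducin-like co-chaperone of the CCT chaperonin. In human pluripotent cells, copies of the endogenous retrovirus HERVH are heavily transcribed and act as promoters for several noncoding and chimeric RNAs.

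Before induction, KO cells held more ABHD12B, PDCL3P4, NRN1 and ADRA2A and less TEX13B and NTS than WT cells, and no KO library overlapped a WT library for any of the 6. Of all genes tested, 25.7% showed no overlap at 0 h and 15.3% passed the test (limma). Both shares are given for scale only, since the 0 h values chose the genes. After induction, ABHD12B was below WT at 3 and 6 h, ADRA2A was above WT at 3 h, NRN1 and ADRA2A were above WT at 48 h, and NTS was below WT at 48 h. In the deposited transcript counts, ABHD12B did not pass at 3 or 6 h, nor did NRN1 at 48 h. Both ADRA2A calls were lost in some fits that left out 1 library. In all, 2 of the 6 genes passed the test at 3 h, 1 at 6 h and 3 at 48 h, against 2.78%, 2.45% and 11.9% of all genes tested. The same shares are the scale for the calls between genotypes in the gene lists below. The groups did not overlap for 3 of the 6 genes at 3 h, 2 at 6 h and 4 at 48 h, against 24.1%, 30.3% and 35.9% of all genes.

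**Figure D1:**
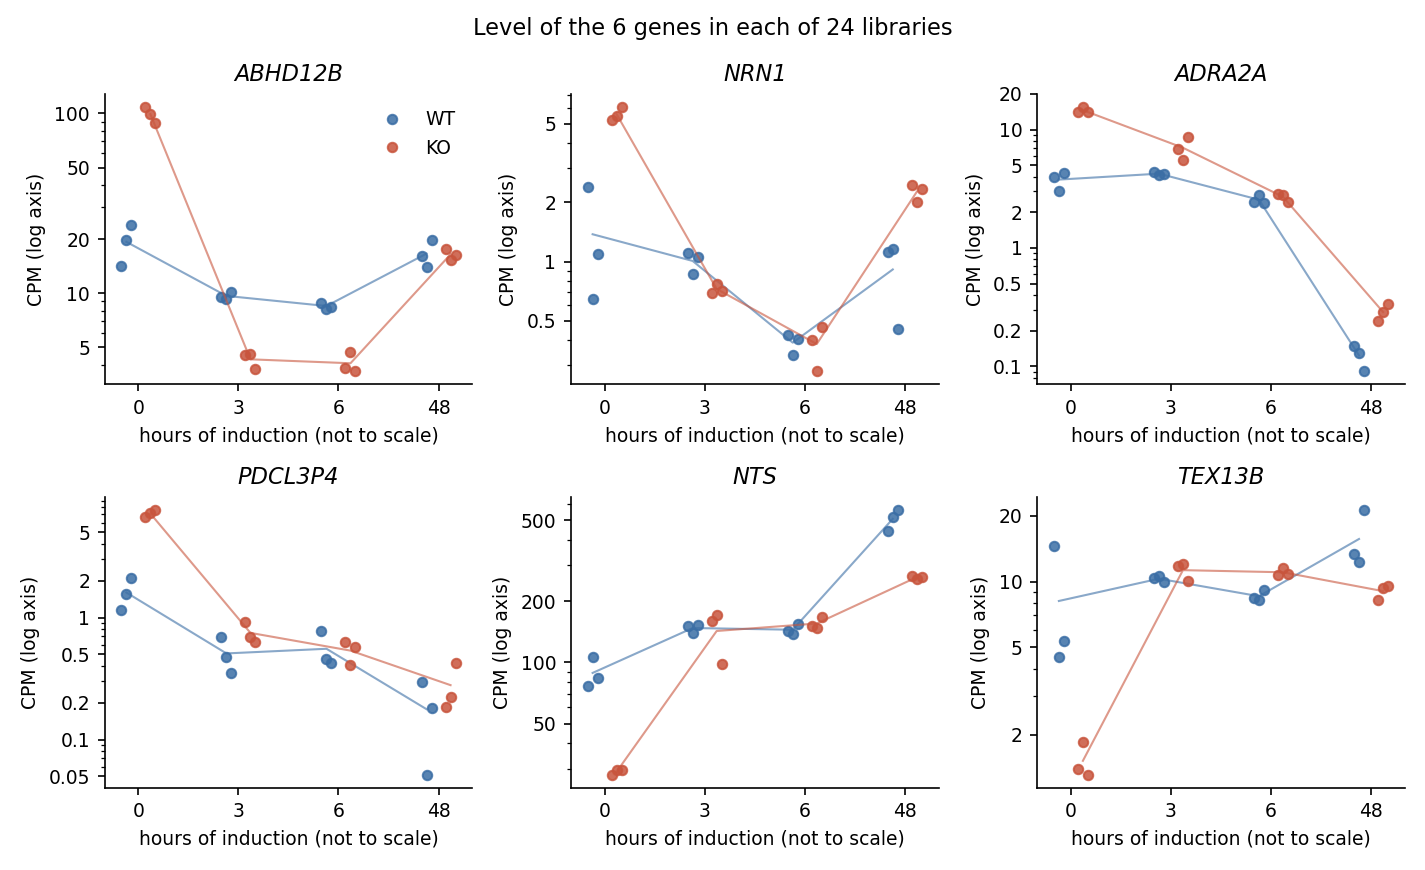
Level of each of the 6 genes in every library, in CPM on a log axis, against hours of induction (not to scale); blue points are WT, red points KO, and lines join group means. At 0 h the red and blue points are apart in all 6 panels, while at 6 h they overlap for NRN1, ADRA2A, PDCL3P4 and NTS.

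Differences below are on the log2 scale, computed from CPM divided by a normalization factor with 0.25 added, and are given with standard errors from one limma fit over the 8 groups. Adjusted p-values are Benjamini-Hochberg values over all 19835 genes, called under 0.05. The added 0.25 understates the change of genes near 0. In bulk RNA, fewer cells making a transcript and less transcript per cell cannot be told apart. CPM is not scaled to gene length, so levels are compared within a gene only.

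The 0 h differences that chose the genes were 2.43 for ABHD12B (95% interval 2.11 to 2.75), 2.07 for PDCL3P4 (1.57 to 2.56), 2.03 for NRN1 (1.47 to 2.59) and 1.94 for ADRA2A (1.62 to 2.27). The lower genes stood at -2.02 for TEX13B (-2.57 to -1.46) and -1.54 for NTS (-1.83 to -1.24). The first WT library of that hour stood apart from its mates over all genes. Without it the values were 2.20, 1.86, 2.43, 1.96, -1.53 and -1.67 in the same order, so each gene kept its direction. The third KO library at 3 h and the third WT library at 48 h also stood apart from their mates.

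ABHD12B (ENSG00000131969, chr14:50872160-50904970, plus strand, GRCh38) was higher in KO before induction, lower in KO at 3 and 6 h, and overlapping with WT at 48 h. In WT it measured 14.1, 19.8 and 23.95 CPM at 0 h, 9.505, 9.29 and 10.1 at 3 h, 8.86, 8.19 and 8.38 at 6 h, and 15.995, 13.9 and 19.8 at 48 h. In KO it measured 109, 99.8 and 88.5 CPM at 0 h, 4.499, 4.58 and 3.76 at 3 h, 3.82, 4.71 and 3.68 at 6 h, and 17.6, 15.3 and 16.4 at 48 h. The KO libraries were thus the highest of all groups at 0 h and the lowest at 3 and 6 h. The drop from 0 to 3 h was 21.2-fold in KO and 1.80-fold in WT, both described without a test. At 3 h KO was lower than WT by -1.13 ± 0.15 (2.19-fold, limma adjusted p = 3.18e-05), and at 6 h by -1.02 ± 0.15 (2.02-fold, limma adjusted p = 0.000138). At 48 h the groups overlapped, with a difference of 0.02 (95% interval -0.30 to 0.34, limma adjusted p = 0.965). From 6 to 48 h it rose by 0.78 in WT and by 1.82 in KO, and the rise was larger in KO by 1.04 ± 0.22 (limma adjusted p = 0.00262). Of all genes, 8.27% passed this last test of unequal change.

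The transcript counts assigned ABHD12B RNA mostly to 1 transcript. They came to 72.0% of the 21598 reads of the gene. How reads in exons shared by several transcripts were assigned is not given in the sources used here. Of 15551 counts on the 9 annotated ABHD12B transcripts over all libraries, 15348 (98.7%) fell on 1, ABHD12B-206, a non-coding processed transcript that begins 21.4 kb inside the gene. It was counted 523, 543 and 672 times in WT and 2950, 2667 and 2463 times in KO at 0 h. Protein-coding ABHD12B transcripts together had 11 counts in WT and 8 in KO at 0 h, summed over 3 libraries. At 3 h ABHD12B-206 stood at 26.8 to 31.3 CPM of the transcript counts in WT and 17.01 to 21.4 in KO, and at 6 h at 22.5 to 23.95 and 16.1 to 16.7, without overlap at either hour. Tested on transcript counts summed per gene with edgeR, the ABHD12B difference kept its sign and did not pass (-0.66, adjusted p = 0.106 at 3 h, and -0.51, adjusted p = 0.524 at 6 h). The unequal rise from 6 to 48 h did not pass there either (0.60, edgeR adjusted p = 0.368).

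**Figure D2:**
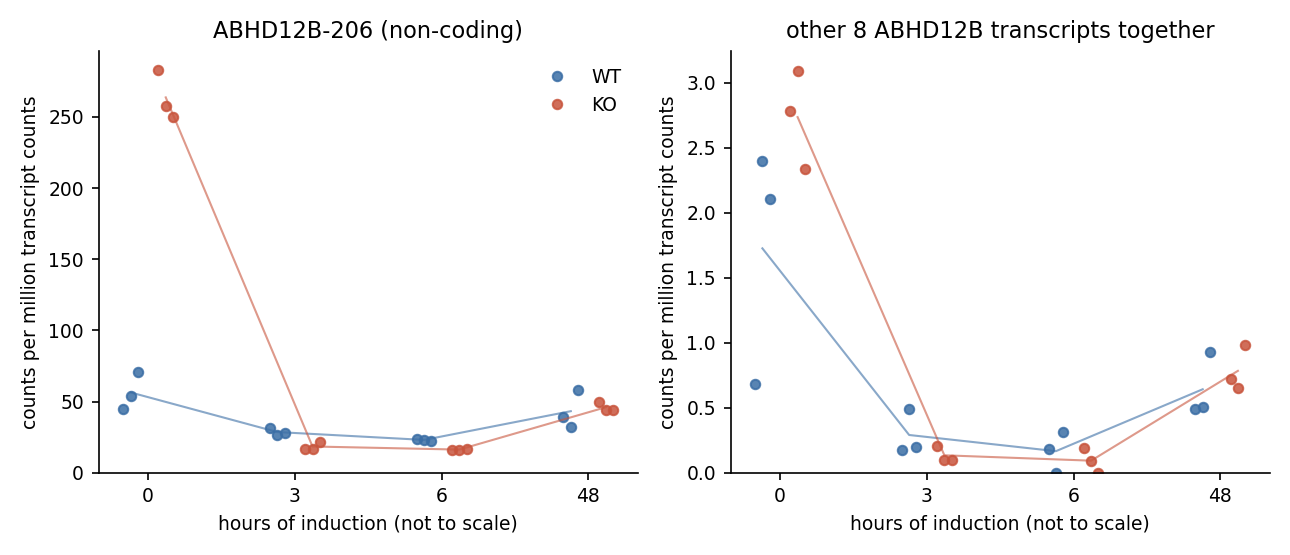
CPM of the transcript counts for ABHD12B-206 (left) and for the other 8 ABHD12B transcripts summed (right) in each library, against hours of induction (not to scale), with blue for WT, red for KO and lines through group means. The highest value on the left is 283, and the KO points at 0 h stand far above the rest only on the left.

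ABHD12B-206 has 6 exons and 850 bases. Its last 4 exons lie wholly within exons of the protein-coding ABHD12B-201, and its first 2 exons, of 177 and 159 bases, share no base with that transcript.

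The 7 HERVH-linked stem cell transcripts listed apart from ABHD12B (ESRG, LINC-ROR, LINC00458, LINC01108, HHLA1, SCGB3A2 and CALB1) gave 2 lower and 0 higher at 3 h and again at 6 h, with medians of -0.64 and -0.60, and 2 higher and 1 lower at 48 h, with a median of 0.65, against medians of 0.02, 0.01 and -0.01 over all genes. HERVH-linked transcripts share repeated sequence, and the sources used here do not say how reads that match several places were counted, so their levels, and that of ABHD12B, are uncertain. Of all genes, 1.92% were called lower at 3 h and 1.9% at 6 h. LINC00458, a noncoding RNA of pluripotent cells, was lower in KO at all 3 hours (-0.99, -0.75 and -0.58, limma adjusted p = 1.42e-05, 0.000567 and 0.00304). LINC01108 was lower in KO at 3 and 6 h (-1.69 and -2.27, limma adjusted p = 0.0278 and 0.00183) and higher at 48 h (1.33, limma adjusted p = 0.043). Its calls at 3 and 48 h were lost without the third KO library of 3 h and the third WT library of 48 h (-1.65 and 1.26, limma adjusted p = 0.0944 and 0.129). ESRG, a transcript enriched in embryonic stem cells, differed by -0.08 and -0.07 at 3 and 6 h and was higher in KO at 48 h by 0.95 (limma adjusted p = 4.28e-06).

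The gene whose level followed ABHD12B most closely over the 24 libraries was ERVH48-1 (Pearson r = 0.954), an endogenous retroviral locus that encodes the envelope-derived protein suppressyn. Over the 18 libraries after 0 h its r was 0.965. These are descriptions, and the libraries share hours and genotypes. Here and for the other members, genes named for a similar level were picked over all 24 libraries, including those tested. Their genotype calls thus follow in part from that choice and are no separate evidence. ERVH48-1 averaged 14.7 CPM in WT and 42.1 in KO at 0 h, 7.21 and 2.83 at 3 h, 5.13 and 2.44 at 6 h, and 17.005 and 15.3 at 48 h. Its KO level was lower by -1.28 at 3 h and -0.99 at 6 h (limma adjusted p = 1.33e-06 and 6.02e-05), and the 48 h difference was -0.14 (limma adjusted p = 0.632). TULP1, a photoreceptor gene, came next with r = 0.954 (0.877 over the 18 libraries after 0 h). It was lower in KO at 3 and 6 h and higher at 48 h (-1.07, -0.88 and 0.75, limma adjusted p = 0.00355, 0.0212 and 0.0211). Its KO libraries measured only 0.130 to 0.180 CPM at 3 h and 0.117 to 0.167 at 6 h, close to the floor of 3 reads given below.

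**Figure D3:**
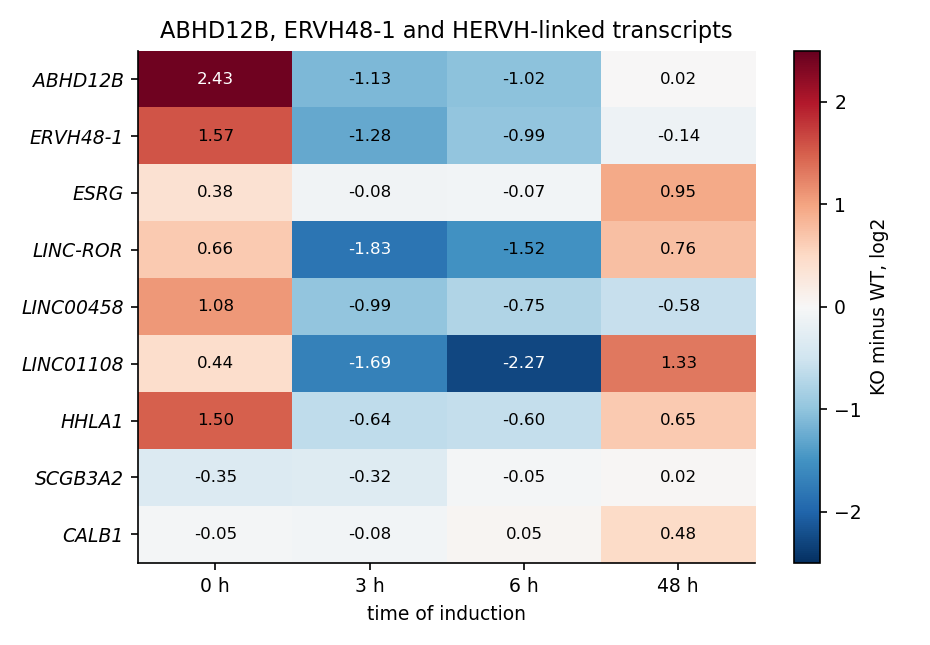
KO minus WT difference on the log2 scale at 0, 3, 6 and 48 h for ABHD12B, ERVH48-1 and 7 HERVH-linked transcripts; red is higher in KO, blue lower, and the number is the difference. ABHD12B and ERVH48-1 run from above 1.5 at 0 h to about -1 at 3 and 6 h and near 0 at 48 h, whereas ESRG differs by -0.08 and -0.07 at 3 and 6 h and by 0.95 at 48 h.

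Pluripotency markers were higher in KO at 0 h and lower at 6 h, as ABHD12B was, and overlapped between genotypes at 3 h. The summed level of 8 such genes (POU5F1, SOX2, NANOG, LIN28A, DPPA4, TDGF1, ZFP42 and DNMT3B, none at 0) ranged from 9039 to 9634 CPM in WT and 9946 to 10245 in KO at 0 h, 8315 to 8601 and 7535 to 8331 at 3 h, and 8134 to 8475 and 7511 to 7742 at 6 h. At 48 h it was 5506 to 5823 in WT and 7352 to 7527 in KO, without overlap, while ABHD12B overlapped. Fibroblast and stroma markers (7 genes) were lower in KO without overlap at 3 h, at 477 to 495 CPM against 686 to 718, and at 6 h, at 452 to 475 against 607 to 665, with DCN at 0 in WT at 6 h. They overlapped at 0 h, at 638 to 667 CPM in KO and 497 to 879 in WT, with LUM and DCN at 0 in both. At 48 h they were higher in KO without overlap, at 436 to 473 against 430 to 434, with DCN at 0 in both and LUM at 0 in KO. The part of either list in the ABHD12B result was not tested. PYGL, which lies across ABHD12B on the opposite strand, differed by -0.01 and -0.14 at 3 and 6 h and was higher in KO at 48 h by 0.53 (limma adjusted p = 0.974, 0.852 and 0.0107). The sources used here do not say whether counting used strand. The nearest tested genes outside, NIN at 41.0 kb and TRIM9 at 70.3 kb, did not pass at 3 or 6 h (limma adjusted p between 0.209 and 0.966), and NIN was lower in KO at 48 h by -0.53 (limma adjusted p = 0.0014).

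Of 20 tested ABHD hydrolases and lysophosphatidylserine-linked genes, limma called 0 at 3 or 6 h (2 and 1 at an unadjusted p under 0.05, and 0 by edgeR or DESeq2), and at 48 h 2 were higher and 2 lower (median -0.13 against -0.01 over all genes). ABHD12 itself measured 32.2 and 31.0 CPM in WT and KO at 3 h and 21.8 and 21.5 at 48 h (differences -0.05 and 0.01, limma adjusted p = 0.865 and 0.98). ABHD16A, which makes lysophosphatidylserine, did not pass at any hour (limma adjusted p = 0.742, 0.911 and 0.826). Those called at 48 h were the depalmitoylases ABHD17B (0.77, limma adjusted p = 2.35e-06) and ABHD17C (0.48, limma adjusted p = 0.00765), the lipase cofactor ABHD5 (-0.27, limma adjusted p = 0.0387) and the monoacylglycerol lipase ABHD6 (-0.59, limma adjusted p = 0.0438), the last named after its value was seen. Without the third WT library of 48 h, only ABHD17B of these 4 passed (0.64, limma adjusted p = 7.13e-06, and 0.0568, 0.0506 and 0.123 for the others).

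NTS (ENSG00000133636, chr12:85874295-85882992, plus strand) rose from 6 to 48 h in both genotypes, and ended lower in KO. In WT it measured 76.1, 106 and 83.9 CPM at 0 h, 151, 139 and 152 at 3 h, 143, 137 and 154 at 6 h, and 445, 519 and 560.4 at 48 h. In KO it measured 28.1, 29.5 and 29.5 CPM at 0 h, 159, 171 and 98.7 at 3 h, 152, 147 and 167 at 6 h, and 266, 258 and 264 at 48 h. The genotypes overlapped at 3 and 6 h and lay apart at 0 and 48 h. The differences at 3 and 6 h were -0.08 (95% interval -0.38 to 0.21) and 0.11 (-0.19 to 0.40), and neither passed (limma adjusted p = 0.816 and 0.904). The third KO library at 3 h stood apart from its 2 mates in all genes, and without it the 3 h difference was 0.16. At 48 h KO was lower by -0.93 ± 0.14 (1.90-fold, limma adjusted p = 7.26e-05). From 6 to 48 h NTS rose by 1.65 in WT (3.14-fold) and by 0.62 in KO (1.53-fold), and the rise was smaller in KO by -1.03 ± 0.20 (limma adjusted p = 0.00127). Nearly all NTS transcript counts, 51885 of 51911, fell on the protein-coding NTS-201. On transcript counts, the unequal rise was -1.02 and did not pass (edgeR adjusted p = 0.188).

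The 250 bases before the NTS start (RefSeq, GRCh38.p14, chr12:85874045-85874294, plus strand, 5′ to 3′) are printed because NTS was the member that rose most in WT from 6 to 48 h. Capitals mark a CRE-like element, TGACATCA.
NTS upstream: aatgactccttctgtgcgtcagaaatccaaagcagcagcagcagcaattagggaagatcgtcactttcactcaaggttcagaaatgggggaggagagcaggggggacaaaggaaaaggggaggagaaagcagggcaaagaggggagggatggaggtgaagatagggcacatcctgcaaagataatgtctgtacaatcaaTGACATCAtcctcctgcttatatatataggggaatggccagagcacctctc
The search covered TGACGTCA and TGACATCA on both strands in windows of 250 bases before to 50 after the start. A match was present in 4.44% of 35116 promoters of that length, and of the 5 members with a promoter entry NTS held 1 and the other 4 held 0. For ABHD12B, the window searched for every motif lay near the gene start. ABHD12B-206, which held most ABHD12B transcript counts, begins 21.4 kb inside the gene. The NTS match is a description of the letters and not a measured site. The other motifs searched the same way were TATAAA, the E-box CACGTG, the HIF core (ACGTG or GCGTG), the octamer motif ATTTGCAT and the AP-1 site (TGAGTCA or TGACTCA). Each had 0 matches for NTS.

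The neurotensin receptor NTSR1 was read at group means of 0.254 to 0.591 CPM, and did not pass at any hour (limma adjusted p = 0.518, 0.674 and 0.524). SORT1 was read at 70.1 to 117 CPM and differed by 0.01, 0.04 and 0.09 at 3, 6 and 48 h (limma adjusted p = 0.964, 0.961 and 0.613). Of 12 tested genes of neurotensin processing, reception and breakdown, 1 was higher at 3 h, 1 higher at 6 h and 1 lower at 48 h. The first 2 calls were both PCSK1, a prohormone convertase (0.44 and 0.47, limma adjusted p = 0.0444 and 0.0277), of which the 3 h call was lost without the third KO library (0.39, limma adjusted p = 0.152). The 48 h call was MME, the neuropeptide-degrading protease neprilysin, which measured 106 CPM in WT and 68.7 in KO (-0.60, limma adjusted p = 3.6e-05).

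GLIPR1L1 had a level much like that of NTS over 24 libraries (r = 0.970) and was picked for that likeness, so its values are a description. It averaged 12.9 CPM in WT and 5.70 in KO at 48 h (-1.08, limma adjusted p = 0.0169), a call lost without the third WT library (-0.79, limma adjusted p = 0.135). The neighbours of NTS diverged at 48 h. RASSF9, 37.7 kb to the left, was lower in KO by -1.28 (limma adjusted p = 5.53e-05), and MGAT4C, 72.7 kb to the right, was higher by 0.92 (limma adjusted p = 0.00197). Primitive streak and mesoderm markers were also lower in KO at 48 h: TBXT, MIXL1, EOMES, MESP1, TBX6, MSGN1 and HAND1 summed to 1655 to 1849 CPM in WT and 1019 to 1143 in KO, and pluripotency markers were higher there, as given above. Neuroectoderm and neuron markers (8 genes) overlapped, at 414 to 471 CPM in WT, with PAX6 and SOX1 at 0, and 456 to 484 in KO, with NEUROG2 at 0. Amnion and trophoblast markers (7 genes, CGA at 0 in both) were lower in KO, at 1.10 to 1.41 CPM against 2.69 to 5.91. Definitive endoderm markers (5 genes) were higher in KO at 48 h, at 253 to 285 CPM against 185 to 217. Their part in the NTS result was not tested.

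**Figure D4:**
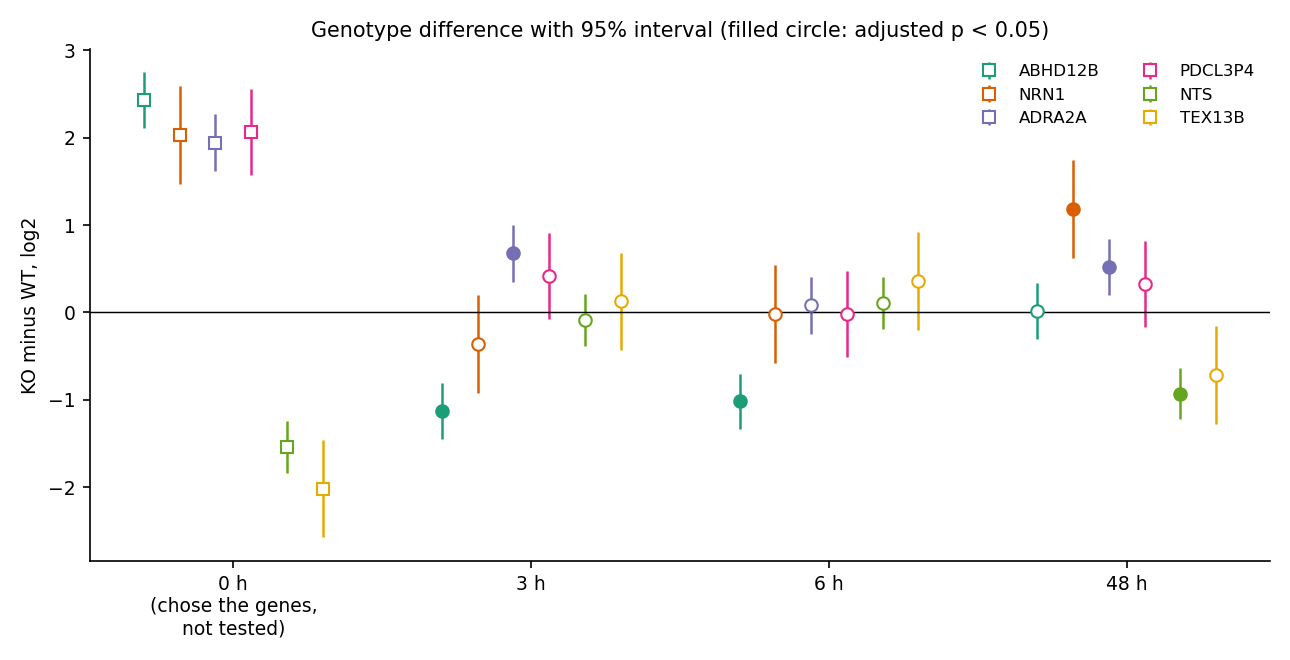
KO minus WT difference on the log2 scale with its 95% interval for the 6 genes at each hour; squares at 0 h chose the genes and were not tested, filled circles have an adjusted p under 0.05 (limma) and open circles do not. ABHD12B sits near -1 at 3 and 6 h, while at 48 h NRN1 and ADRA2A are above 0 and NTS is near -1.

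ADRA2A (ENSG00000150594, chr10:111077163-111080907, plus strand) fell during induction in both genotypes and was higher in KO at 3 and 48 h. In WT it measured 3.99, 3.05 and 4.296 CPM at 0 h, 4.38, 4.14 and 4.19 at 3 h, 2.46, 2.81 and 2.39 at 6 h, and 0.149, 0.129 and 0.0909 at 48 h. In KO it measured 14.1, 15.6 and 14.1 CPM at 0 h, 6.92, 5.48 and 8.67 at 3 h, 2.86, 2.80 and 2.44 at 6 h, and 0.239, 0.285 and 0.338 at 48 h. KO was above WT without overlap at 0, 3 and 48 h, and the groups overlapped at 6 h. The 3 h difference was 0.68 ± 0.16 (1.598-fold, limma adjusted p = 0.0147). It no longer passed without the third KO library (0.51, adjusted p = 0.104), the second WT library (0.66, adjusted p = 0.0725) or the third WT library (0.67, adjusted p = 0.0632) of that hour in the limma fit, nor in a fit of those 2 groups alone (0.65, adjusted p = 0.127). On transcript counts the 3 h difference was 0.81 (edgeR adjusted p = 0.0158). That test used the same libraries, and the third KO library again held the most counts (484, against 314 and 263 in its mates). Primitive streak markers were also higher in KO at 3 h, at 96.1 to 119 CPM against 87.9 to 90.5, and their part was not tested. At 6 h the difference was 0.08 (95% interval -0.24 to 0.40, limma adjusted p = 0.945).

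At 48 h ADRA2A rested on 4 to 6 reads per WT library and 9 to 15 per KO library, above a floor of 3 reads, which is 0.0595 to 0.1003 CPM. The difference was 0.52 ± 0.16 (limma adjusted p = 0.0302), and the group means were 0.123 ± 0.0297 and 0.287 ± 0.0494 CPM (SD, n = 3). With 1 added to CPM in place of 0.25 it was 0.19 and did not pass (limma adjusted p = 0.393), and with 0.1 added it was 0.80 and passed (limma adjusted p = 0.00263). It also failed without WT library 2 or 3 or KO library 2 or 3 of 48 h (0.53, 0.46, 0.52 and 0.45, limma adjusted p = 0.0625, 0.107, 0.085 and 0.13).

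ADRA2A fell at each step after 3 h. From 3 to 6 h ADRA2A fell by 0.65 in WT and by 1.25 in KO (limma adjusted p = 0.00602 and 5.6e-06), and from 6 to 48 h by 3.00 in WT and by 2.56 in KO (limma adjusted p = 1.31e-13 and 2.53e-12). From 3 to 6 h 15.1% of all genes passed in WT and 18.8% in KO, and from 6 to 48 h 63.8% and 62.8%. The difference between the 6 to 48 h falls did not pass (0.44, 95% interval -0.02 to 0.90, limma adjusted p = 0.298).

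The 250 bases before the ADRA2A start (RefSeq, GRCh38.p14, chr10:111076779-111077028, plus strand) are printed because ADRA2A was the member that fell most from 6 to 48 h. Capitals mark the E-box CACGTG and the TATA motif TATAAA.
ADRA2A upstream: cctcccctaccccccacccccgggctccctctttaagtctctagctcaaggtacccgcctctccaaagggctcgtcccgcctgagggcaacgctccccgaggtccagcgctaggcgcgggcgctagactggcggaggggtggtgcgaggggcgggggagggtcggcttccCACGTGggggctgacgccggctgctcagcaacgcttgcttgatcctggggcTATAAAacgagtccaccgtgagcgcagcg
On both strands, CACGTG occurred in 7.26% and TATAAA in 11.5% of the 35116 promoter windows, and each had 1 match for ADRA2A and 0 for the other 4 members with an entry. ACGTG or GCGTG, which overlaps CACGTG on both strands, had 3 matches for ADRA2A, and 48.4% of windows held at least 1. These matches are descriptions of the letters, not measured sites.

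NPTX1, a neuronal pentraxin, had the level most like ADRA2A (r = 0.97504 over 24 libraries), followed by the glycosyltransferase LARGE2 (r = 0.966). NPTX1 averaged 23.02 and 48.9 CPM in WT and KO at 0 h, 21.005 and 25.8 at 3 h, 4.53 and 5.82 at 6 h, and 0.0576 and 0.242 at 48 h, where it passed (0.65, limma adjusted p = 0.0152). That level rested on 2 to 3 reads per WT library, at or under the floor of 3, and 9 to 12 per KO library. The related receptor ADRA2C went the other way at 48 h, with 14.8 CPM in WT and 9.38 in KO (-0.62, limma adjusted p = 0.017). Of 28 tested genes of adrenergic receptors and Gi or cAMP signalling, 1 was lower at 3 h and 1 at 6 h, and at 48 h 5 were higher and 2 lower (median -0.02 against -0.01). ARRB1, a beta-arrestin that desensitises receptors, was lower in KO at 3 and 6 h (-0.35 and -0.40, limma adjusted p = 0.00226 and 0.000548) and higher at 48 h (0.31, limma adjusted p = 0.00231). The adenylyl cyclase ADCY5 and the monoamine-degrading enzyme MAOA were higher in KO at 48 h (0.72 and 0.83, limma adjusted p = 4.38e-05 and 5.32e-05). The other calls at 48 h, named after their values were seen, were ADCY1 and ADCY9 (0.39 and 0.50, higher) and the Gi subunit gene GNAI1 (-0.43, lower), and ADCY9 did not pass without the third WT library (limma adjusted p = 0.0816). The neighbours SHOC2, 63.5 kb away, and GPAM, 1069 kb away, did not pass at any hour (limma adjusted p between 0.241 and 0.884).

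NRN1 (ENSG00000124785, chr6:5997999-6007605, minus strand) was lowest at 6 h in both genotypes and higher in KO at 48 h. In WT it measured 2.39, 0.649 and 1.09 CPM at 0 h, 1.11, 0.862 and 1.05 at 3 h, 0.424, 0.337 and 0.403 at 6 h, and 1.12, 1.16 and 0.455 at 48 h. In KO it measured 5.21, 5.47 and 6.11 CPM at 0 h, 0.694, 0.772 and 0.713 at 3 h, 0.398, 0.278 and 0.468 at 6 h, and 2.44, 2.00 and 2.34 at 48 h. KO lay above WT without overlap at 0 and 48 h and below it without overlap at 3 h. The 3 h difference did not pass (-0.36, 95% interval -0.92 to 0.20, limma adjusted p = 0.539), nor did the 6 h difference (-0.02, limma adjusted p = 0.993). At 48 h KO was higher by 1.18 ± 0.27 (2.27-fold, limma adjusted p = 0.00434). The transcript counts do not show that difference: NRN1 had 162 counts in all there, against 1554 reads in the gene table, and the 48 h difference was -0.14 (edgeR adjusted p = 0.933).

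Between hours, NRN1 fell in WT from 3 to 6 h by 0.96 (limma adjusted p = 0.018), a call lost without WT library 1 or 3 of 3 h or library 2 of 6 h (limma adjusted p = 0.0678, 0.0618 and 0.0683). From 6 to 48 h it rose by 0.69 in WT and by 1.89 in KO (limma adjusted p = 0.0304 and 2.34e-06). The WT call was lost without library 2 or 3 of 6 h or library 1 or 2 of 48 h (limma adjusted p = 0.0846, 0.0545, 0.124 and 0.137). The larger rise in KO did not pass (1.203 ± 0.38, limma adjusted p = 0.0558). It passed when 3 libraries that stand apart from their mates (the first of WT at 0 h, the third of KO at 3 h and the third of WT at 48 h) were left out (0.91, limma adjusted p = 0.00592).

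The levels most like NRN1 were those of TMBIM1, a regulator of lysosomal membrane traffic, and JCAD, an endothelial junction protein (r = 0.942 and 0.932 over 24 libraries). JCAD averaged 4.82 CPM in WT and 11.8 in KO at 48 h (1.29, limma adjusted p = 0.000598). The relative NRN1L was not tested, at group means of at most 0.0268 CPM. Of 11 tested activity-regulated neurite genes, 2 were higher and 1 lower at 3 h, 0 higher and 1 lower at 6 h, and 4 higher and 1 lower at 48 h (median 0.06 against -0.01). BDNF, a neurotrophin, was higher in KO at 48 h (0.80, limma adjusted p = 0.00139), and NPTX2 was lower at 3 and 6 h and higher at 48 h (-0.46, -0.51 and 0.44, limma adjusted p = 0.026, 0.00976 and 0.011). The immediate early gene ARC and the secreted neuropeptide precursor VGF were higher in KO at 3 h (1.12 and 1.04, limma adjusted p = 0.0386 and 0.0309), with wide spread in KO. ARC measured 10.5, 9.19 and 25.9 CPM in KO and 5.57 to 6.64 in WT, and VGF 32.7, 35.1 and 78.9 in KO and 21.2 to 22.2 in WT. The third KO library, which stands apart, held the highest value of each, and without it neither passed (0.65 and 0.63, limma adjusted p = 0.268 and 0.228). The calls at 48 h also held NPTX1, given above, HOMER1 (0.28, higher) and CREM (-0.39, lower). Without the third WT library of 48 h, NPTX1, NPTX2, HOMER1 and CREM did not pass (limma adjusted p = 0.0507, 0.0646, 0.169 and 0.0791). VGF, ARC, HOMER1 and CREM were named after their values were seen. The neighbours FARS2 and F13A1, 169 and 136 kb away, did not pass at any hour (limma adjusted p between 0.162 and 0.97).

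TEX13B (ENSG00000170925, chrX:107980864-107982370, minus strand) had low KO levels at 0 h and no called difference between genotypes later. In WT it measured 14.6, 4.52 and 5.36 CPM at 0 h, 10.4, 10.6 and 9.99 at 3 h, 8.39, 8.21 and 9.11 at 6 h, and 13.4, 12.3 and 21.2 at 48 h. In KO it measured 1.39, 1.85 and 1.31 CPM at 0 h, 11.8, 12.04 and 10.006 at 3 h, 10.7, 11.6 and 10.8 at 6 h, and 8.26, 9.33 and 9.53 at 48 h. The first WT library at 0 h and the third at 48 h, both libraries that stand apart from their mates in all genes, held the high values of their groups. The 0 h difference of -2.02 was -1.53 without the first WT library. By 3 h the KO level stood 6.78-fold above its 0 h level, described without a test, and the genotypes overlapped (0.13, 95% interval -0.43 to 0.68, limma adjusted p = 0.857).

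KO lay above WT without overlap at 6 h (0.36 ± 0.27) and below it without overlap at 48 h (-0.72 ± 0.27), and neither passed (limma adjusted p = 0.764 and 0.0922). Both passed without the 3 libraries that stand apart (0.36 and -0.45, limma adjusted p = 0.0169 and 0.00396). From 6 to 48 h TEX13B rose in WT by 0.66 (limma adjusted p = 0.0366). That call was lost without library 1, 2 or 3 of 6 h or the third of 48 h (0.64, 0.63, 0.71 and 0.40, limma adjusted p = 0.0807, 0.0831, 0.0536 and 0.226). In KO the change was -0.42 (limma adjusted p = 0.181). The difference between these changes, -1.08 ± 0.38, did not pass (limma adjusted p = 0.0911).

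BCHE, which encodes butyrylcholinesterase, had the level most like TEX13B over 24 libraries (r = 0.955), and r was 0.639 over the 18 after 0 h. It averaged 4.78 CPM in WT and 1.11 in KO at 0 h, and was lower in KO at 48 h (-0.69, limma adjusted p = 0.00425). FAHD2A came next (r = 0.923, and 0.756 over the 18 after 0 h) and did not pass at 48 h (-0.22, limma adjusted p = 0.104). Of 12 tested testis and germ cell genes, 0 were higher and 2 lower at 3 h, 1 lower at 6 h and 1 lower at 48 h. The medians were -0.30, -0.27 and 0.13, against 0.02, 0.01 and -0.01 over all genes. Of all genes, 2.78%, 2.45% and 11.9% were called at those hours. The cancer-testis antigen MAGEA4 was lower in KO at 3 and 6 h (-1.46 and -1.49, limma adjusted p = 0.00822 and 0.00656), and the germ cell RNA-binding protein DAZL at 3 h (-0.99, limma adjusted p = 0.0456). Without the third KO library of 3 h, neither passed at that hour (-1.12 and -0.61, limma adjusted p = 0.0787 and 0.303). STK31 was lower at 48 h (-0.85, limma adjusted p = 0.0101). Germ cell markers (6 genes, none at 0 in any group) summed to 6.69 to 9.16 CPM in WT and 5.62 to 6.85 in KO at 0 h, overlapping, to 4.93 to 5.41 and 1.38 to 3.35 at 3 h, and to 4.22 to 4.86 and 2.18 to 2.80 at 6 h, lower in KO. At 48 h they were higher in KO, at 1.65 to 1.85 against 0.723 to 1.30. All of these markers but NANOS3 also belong to the testis and germ cell list above, so their sums are no separate evidence. The part of the markers in these results was not tested. NLRP3P1, a pseudogene on the opposite strand, covers TEX13B and was not tested. The neighbour VSIG1, 62.6 kb away, was lower in KO at 3 h (-0.88, limma adjusted p = 0.0269, and 0.113 without the third KO library), and AL034399.2 did not pass at any hour.

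PDCL3P4 (ENSG00000244119, chr3:101712472-101713191, plus strand) was high in KO at 0 h, and its genotypes overlapped at each later hour. In WT it measured 1.14, 1.55 and 2.12 CPM at 0 h, 0.694, 0.479 and 0.352 at 3 h, 0.781, 0.456 and 0.428 at 6 h, and 0.299, 0.0516 and 0.182 at 48 h. In KO it measured 6.63, 7.14 and 7.58 CPM at 0 h, 0.925, 0.695 and 0.627 at 3 h, 0.633, 0.407 and 0.569 at 6 h, and 0.186, 0.224 and 0.428 at 48 h. The groups overlapped at 3, 6 and 48 h, with differences of 0.42, -0.01 and 0.32 (limma adjusted p = 0.405, 0.996 and 0.463). The 95% interval at 3 h ran from -0.08 to 0.91. The WT level at 48 h rested on 2 to 12 reads. From 6 to 48 h it fell by 1.01 in WT and by 0.67 in KO (limma adjusted p = 0.0008 and 0.0177). The KO libraries of these hours overlapped, and the KO call was lost without library 1 of 6 h or library 1 or 2 of 48 h (limma adjusted p = 0.0691, 0.0849 and 0.0599).

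Some reads of this pseudogene cannot be told from those of its parent. PDCL3P4 and the PDCL3 coding sequence, of 720 bases each, were identical at 700 bases (97.1%) with 19 substitutions and 2 gapped bases, and the longest exact run was 163 bases. Of all 50-base windows of PDCL3P4, 30.8% also occur exactly in PDCL3, and of 100-base windows 10.3%. The stretch with the densest differences, bases 589 to 708 of both, is printed from GENCODE 29 (GRCh38, chr3:101713060-101713179 for the pseudogene), with capitals at the 9 bases that differ.
PDCL3P4: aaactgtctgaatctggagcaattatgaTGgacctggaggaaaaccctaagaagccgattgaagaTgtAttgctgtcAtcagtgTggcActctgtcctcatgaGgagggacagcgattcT
PDCL3: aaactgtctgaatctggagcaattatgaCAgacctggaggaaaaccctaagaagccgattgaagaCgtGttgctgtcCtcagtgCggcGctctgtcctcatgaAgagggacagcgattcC
The transcript table gave PDCL3P4 0 counts in all 24 libraries, against 1385 reads in the gene table, so its level is uncertain. The parent PDCL3 measured 30.2 ± 1.22 CPM in WT and 27.8 ± 0.495 in KO at 0 h (SD, n = 3), and its differences at 3, 6 and 48 h were -0.04, 0.04 and -0.11 (limma adjusted p = 0.89, 0.965 and 0.614).

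**Figure D5:**
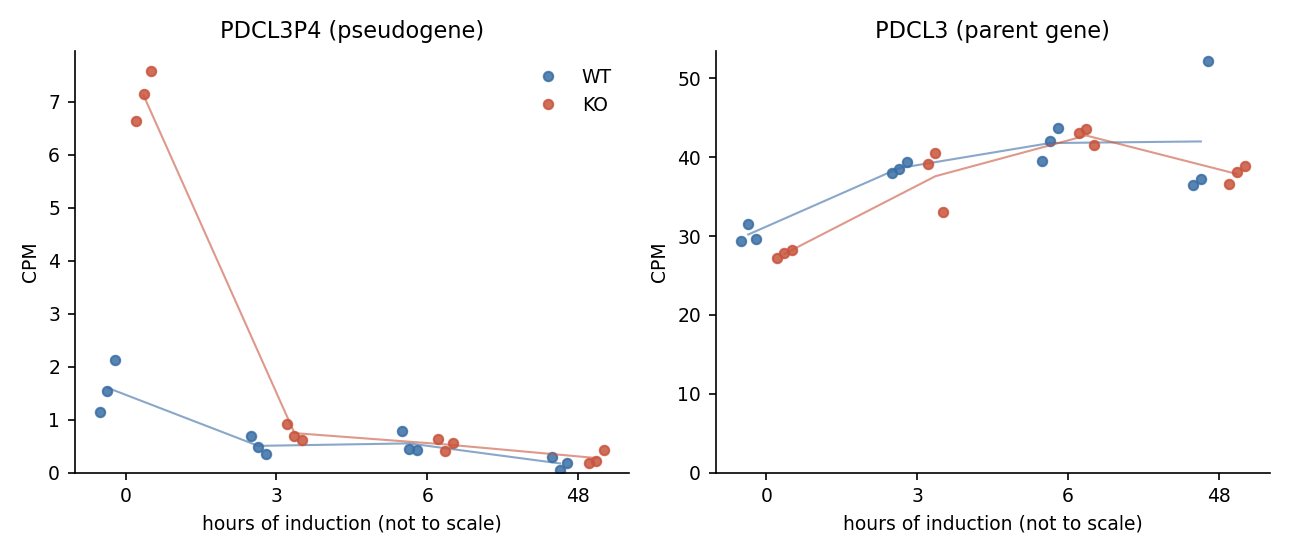
CPM of the pseudogene PDCL3P4 (left) and of its parent PDCL3 (right) in each library against hours of induction (not to scale); blue is WT, red is KO, and lines join group means. The KO points of PDCL3P4 at 0 h lie between 6.63 and 7.58, above the rest of that panel, while the group means of PDCL3 at 0 h are 30.2 in WT and 27.8 in KO.

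PDCL, a second phosducin-like co-chaperone, averaged 37.5 CPM in KO and 39.6 in WT at 0 h and did not pass at any hour (limma adjusted p = 0.836, 0.545 and 0.946). Of 10 tested genes of the phosducin-like family and the CCT chaperonin, limma called 0 at 3, 6 or 48 h between genotypes (1, 0 and 0 at an unadjusted p under 0.05, and 0 by edgeR or DESeq2). From 6 to 48 h 1 rose and 7 fell in WT and 0 rose and 8 fell in KO. Between those hours 63.8% of all genes passed in WT and 62.8% in KO. The list medians were -0.45 in WT and -0.51 in KO, against -0.03 over all genes in each. AKAP1 and the mitochondrial ribosomal RNA MT-RNR2 had the levels most like PDCL3P4 (r = 0.950 and 0.947 over 24 libraries, and 0.768 and 0.791 over the 18 after 0 h). AKAP1, a mitochondrial anchor of protein kinase A, was higher in KO at 48 h (0.53, limma adjusted p = 0.00464). The neighbours RPL24 and CEP97, 25.7 and 10.7 kb away, did not pass at any hour (limma adjusted p between 0.417 and 0.994).

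Set side by side over the 18 libraries after 0 h, which did not choose the genes, the 6 levels did not move as 1 group. ADRA2A and NTS ran opposite (r = -0.905), ADRA2A and PDCL3P4 ran together (r = 0.845), and TEX13B was nearly unrelated to ABHD12B (r = -0.033). These correlations share hours and genotypes and are descriptions. The fit of all libraries called all 6 genes in WT from 6 to 48 h and 5 of 6 in KO, and leaving out 1 library at a time called 4 to 5 in each, with NRN1 and TEX13B the calls lost in WT. These are hours between which most genes passed, as given above. In the order of the 8 groups, KO at 0 h was the highest for ABHD12B, NRN1, ADRA2A and PDCL3P4 and the lowest for NTS and TEX13B, and in all 6 genes its libraries were apart from those of the next group. The 0 h values chose the genes, so this extreme place follows largely from the choice and is no finding about them. Elsewhere in that order neighbouring groups overlapped often, as KO at 6 h and KO at 3 h did for ABHD12B and KO at 3 h, WT at 3 h, WT at 6 h and KO at 6 h for NTS.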

How the data were processed

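RNA of 24 HUES6 libraries, 8 groups of 3, was measured by poly(A)-selected RNA-seq. The authors deposited a gene table in CPM and a transcript table of counts; per the submitters' processing notes the build was hg38 and DESeq2 was used, and the sources used here name no aligner or counter. The gene table's header is shifted by 1 cell. Read with that shift, 24 of 24 libraries matched their own group in the deposited transcript counts best, and 20 of 24 their own library. With the header as it stands, 1 of 24 matched its own library best. Whole reads were recovered from CPM (100% of values within 0.1 read), at 29896358 to 50451908 per library. Transcript counts came to 22.1 to 26.4% of those reads. For ADRA2A and TEX13B they came to 114% and 106% of the reads of the gene, and the reason was not tested. Symbols of 52338 of the 57820 gene IDs (90.5%) came from GENCODE 29.

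Genes passing edgeR's filter (at least 10 reads, 15 in total) numbered 19835. CPM was divided by TMM factors (0.935 to 1.08), and log2(CPM + 0.25) was fitted with limma 3.58.1 (trend, all 8 groups, 16 residual degrees of freedom) in R 4.3.3, with Benjamini-Hochberg adjustment. The limma step was tested on simulated data. Contrasts using 0 h libraries were described only. edgeR 4.0.16 and DESeq2 1.42.0 on recovered reads, edgeR on transcript sums, other factors, pseudocounts (0.1 and 1), filters, a fit of only the groups compared, a replicate block and left-out libraries were the alternatives. Leaving out the library that stands apart for other named genes was chosen after seeing the data. Intervals cover 95%.

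The members, lists and tests were chosen with earlier results of these data known. Genes named are the 6 members, the 2 most correlated tested genes of each, the nearest tested neighbours, fixed partners, and up to 3 genes with the smallest adjusted p in each list. The correlated genes were chosen over all 24 libraries, so their calls are not independent of those of the members. A gene that this rule names and a sequence are not reported here. Libraries correlated with their group mates at r of 0.9948 or more except the first of WT at 0 h (0.974 to 0.977), the third of KO at 3 h (0.987 to 0.988) and the third of WT at 48 h (0.990). All differed by more than sampling noise. Python 3.11.15, numpy 2.4.6, pandas 2.3.3, biopython 1.88 and matplotlib 3.10.9 were used. No genome was used.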

Additional observations from a re-analysis of the deposited data

Results flagged for a closer look

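The change from 6 to 48 h differed between genotypes for 2 of the 6 genes by a test of the difference itself (limma). Of all genes tested, 8.27% passed that test. ABHD12B rose more in KO than in WT, by 1.04 on the log2 scale (95% interval 0.58 to 1.49, adjusted p = 0.00262), from KO libraries of 3.68 to 4.71 CPM to 15.3 to 17.6 CPM. NTS rose less in KO than in WT, with a difference of -1.03 (95% interval -1.45 to -0.62, adjusted p = 0.00127), reaching 258 to 266 CPM in KO and 445 to 560.4 in WT. Neither passed on transcript counts with edgeR (0.60 and -1.02, adjusted p = 0.368 and 0.188).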

How the results depend on the processing

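Of 940 alternative values of single genes, 855 kept their direction and their side of the threshold, 34 lost and 17 gained a call, and 34 changed sign. The number of the 6 genes called was 2, 1 and 3 at 3, 6 and 48 h, 2 and 6 in WT from 3 to 6 and 6 to 48 h, 1 and 5 in KO, and 2 for unequal change. On transcript counts with edgeR it was 1 at 3 h, 0 at 6 h, 1 in WT from 3 to 6 h, 3 in KO from 6 to 48 h and 0 for unequal change. NRN1 also lost its calls there at 48 h and in WT from 6 to 48 h (edgeR adjusted p = 0.933 and 0.0515). PDCL3P4, with 0 counts, could not be tested there. With only the groups compared, the number called was 1 at 3 h, 2 at 6 h and 4 for unequal change. TEX13B also passed in KO from 6 to 48 h (limma adjusted p = 0.000387). Without the 3 libraries that stand apart, the number was 2 at 6 h, 2 in KO from 3 to 6 h and 4 for unequal change. TEX13B also passed at 48 h and in KO from 6 to 48 h (limma adjusted p = 0.00396 and 0.00189). Other small changes are left out. Leaving out 1 library at a time gave 1 to 2 at 3 h, 2 to 3 at 48 h, 1 to 2 in WT from 3 to 6 h, 4 to 5 from 6 to 48 h in each genotype and 2 to 3 for unequal change.

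Genes called over the whole table were 552, 486 and 2365 at 3, 6 and 48 h, 2988 in WT and 3730 in KO from 3 to 6 h, and 1641 for unequal change. Transcript counts gave 209, 170, 789, 667, 1022 and 449, and leaving out the 3 libraries gave 1857, 2442, 4788, 7485, 6340 and 4531. With only the groups compared 2238 were called at 6 h, 7850 and 2148 in WT and KO from 3 to 6 h, and 3085 for unequal change, and 322 at 6 h with at least 5 CPM in 3 libraries. Single left-out libraries gave as few as 339 at 3 h, 1923 in WT and 2306 in KO from 3 to 6 h.

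Except for NRN1 on transcript counts, the signs changed only for differences that had not passed. NTS in WT from 3 to 6 h was -0.0141 with upper-quartile factors, -0.0286 with CPM as deposited, -0.00593 with the 5 CPM filter, -0.0326 on transcript counts and -0.000696 without the 3 libraries. ABHD12B at 48 h was -0.000771 with CPM as deposited and -0.000612 with edgeR on reads. TEX13B in KO from 3 to 6 h was -0.0276 with CPM as deposited and -0.0753 without the 3 libraries, where NTS was 0.161 at 3 h and -0.0514 in KO from 3 to 6 h. NRN1 on transcript counts was 0.38, 0.0145 and -0.14 at 3, 6 and 48 h and -0.16 for unequal change. With 1 library left out, the ranges were -0.0448 to 0.0381 for NTS and -0.0825 to 0.277 for PDCL3P4 in WT from 3 to 6 h, -0.149 to 0.0327 for ABHD12B, -0.0458 to 0.347 for NTS and -0.0698 to 0.0599 for TEX13B in KO from 3 to 6 h, -0.23 to 0.16 for NTS at 3 h, -0.12 to 0.10 for NRN1 and -0.12 to 0.18 for PDCL3P4 at 6 h, and -0.11 to 0.18 for ABHD12B at 48 h. The causes were not tested.

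With the replicate block, all 56 values kept their direction and side of the threshold (2, 1 and 3 genes called at 3, 6 and 48 h). Same-numbered WT and KO libraries of the same hour correlated at -0.18 to 0.05 in their deviations from group means, so no pairing of the genotypes showed there. Whether the numbers pair libraries across hours was not examined. Under DESeq2, TEX13B at 48 h and its unequal change passed (-0.77 and -1.14, adjusted p = 0.0449 and 0.0437). Depth limits ADRA2A and PDCL3P4 at 48 h, at 2 to 15 reads in most libraries.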
